A study of Mus musculus with 2 samples.

Results

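Mir126a, Mir143, Mir145a, Mir221 and Mir222 are 5 miRNA genes known from the wall of blood vessels, and all 5 were read in the forebrain of mouse embryos at embryonic day 11.5. They were chosen by name, for their known place in vessels, with earlier results of these data known. Their Ensembl identifiers were used to find them among the 1973 miRNA gene rows of each count table. The microRNA-seq series has a single group of forebrain from strain B6NCrl, with neither a treatment nor a control. Its replicate 1 was made from 109 embryos and its replicate 2 from 88 embryos, male and female mixed. The labels call them biological replicates with separate tissue samples, and give both the same donor entry. Replicate 1 held 1281201 counts on the strand of miRNA genes, and replicate 2 held 1297647. A level is given in CPM, for which the counts of a library are scaled to sum to 1000000, so that 3 counts equal 2.34 CPM in replicate 1, against 2.31 CPM in replicate 2. Each value with ± is a mean with its SD over the 2 libraries.

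A blood vessel has an inner lining of endothelial cells, which are wrapped by mural cells, the pericytes of small vessels and the smooth muscle cells of large ones. miR-126, made from an intron of the endothelial gene Egfl7, is the classic endothelial miRNA and is known in mouse and zebrafish for keeping growing vessels intact, in part by repressing Spred1, an inhibitor of VEGF signalling. miR-143 and miR-145 are made from 1 transcript and are known from smooth muscle cells and pericytes, where serum response factor and myocardin drive the locus and miR-145 represses Klf4 and Klf5. miR-221 and miR-222 are known to repress the receptor Kit and the cell cycle inhibitor Cdkn1b, in endothelial and smooth muscle cells but also in many dividing cells outside vessels, so they are less specific to vessels than the other members. In the embryonic forebrain, vessels grow in from a plexus on the surface of the neural tube.

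Sequences are shown for Mir126a, whose counts led the members, for Mir126b, which lies on the opposite strand at the same place, and for the Mir221 and Mir222 pair, whose main products share a seed. They are from RefSeq on GRCm38.p6, the assembly that mm10 names, written 5′ to 3′. In mature miRNAs, capitals mark the seed (bases 2 to 8), which pairs with target messenger RNAs. In hairpins, capitals mark the mature sequences that the table lists for the gene.
Mir126a hairpin (chr2:26591357-26591429, plus strand): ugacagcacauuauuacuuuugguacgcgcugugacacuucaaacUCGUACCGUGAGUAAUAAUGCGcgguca
miR-126a-3p (chr2:26591402-26591423, plus strand): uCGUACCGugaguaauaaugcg
miR-126b-5p (chr2:26591399-26591420, minus strand): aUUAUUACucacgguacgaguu
miR-126b-3p (chr2:26591363-26591385, minus strand): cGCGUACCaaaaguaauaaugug
Mir221 hairpin (chrX:19146294-19146388, minus strand): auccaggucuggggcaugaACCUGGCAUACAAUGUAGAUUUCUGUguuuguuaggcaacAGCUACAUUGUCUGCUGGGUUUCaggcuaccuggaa
Mir222 hairpin (chrX:19146893-19146971, minus strand): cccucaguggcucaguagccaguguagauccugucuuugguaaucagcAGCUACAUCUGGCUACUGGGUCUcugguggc
miR-221-3p (chrX:19146307-19146329, minus strand): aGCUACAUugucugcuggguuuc
miR-222-3p (chrX:19146901-19146923, minus strand): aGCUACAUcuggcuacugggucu
The seed of miR-126a-3p was found in 0 other mature sequences of the 1738 in the table. That table has 0 entries for Mir143 and Mir145a and lists 1 mature sequence each for Mir126a and Mir222. A shared seed or a mature arm can therefore be missing from it. The seed of miR-221-3p is also that of miR-222-3p and of miR-1928. Both are 23 bases long and begin with the same 8 bases, and from the first base on they match at 11 positions in all. miR-126b-5p, read backwards as its complement, shares a run of 19 bases with miR-126a-3p, since both genes are read from 1 stretch of DNA.

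Mir126a (ENSMUSG00000065540) lies within Egfl7 on the same strand, in an intron of its coding transcripts and in an exon of at least 1 transcript with a retained intron, per GENCODE M21, and also in an intron of the overlapping gene Gm20532. Mir221 (ENSMUSG00000065422) and Mir222 (ENSMUSG00000065471) overlap no other annotated gene and are 504 bases apart. Mir143 (ENSMUSG00000065445; chromosome 18, 61649196 to 61649258) and Mir145a (ENSMUSG00000065592; chromosome 18, 61647825 to 61647894) are 1301 bases apart on the minus strand. RefSeq places both inside the long noncoding RNA gene Carmn (61645878 to 61665538). In GENCODE M21 the nearer end of Carmn lies 366 bases beyond Mir143, on the side of higher coordinates. The count tables carry earlier versions of the identifiers of Mir143 and Mir145a than M21, so the hairpin ends used for counting these genes may differ from those given here. No member shares a stretch of 20 bases with a miRNA hairpin elsewhere. The longest such stretch was 17 bases, between Mir145a and Mir145b, and Mir145b had 0 counts in both libraries. A gene count adds up both arms of a hairpin, so levels of the 5p and 3p products were not told apart.

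Together the 5 genes took 55886 counts in replicate 1 and 49705 counts in replicate 2, or 4.10% ± 0.376 of all miRNA gene counts. Mir126a made up 79.3% of that sum in replicate 1 and 79.2% in replicate 2. All 5 members passed 2 CPM in both libraries, as did 424 of the 1973 genes. The median of the members was 608 CPM and that of the 424 detected genes was 143 CPM, with Mir145a alone below it. In bulk tissue, fewer cells of a type and less of the RNA per cell cannot be told apart, so these levels give no number of vessel cells.

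**Figure D1:**
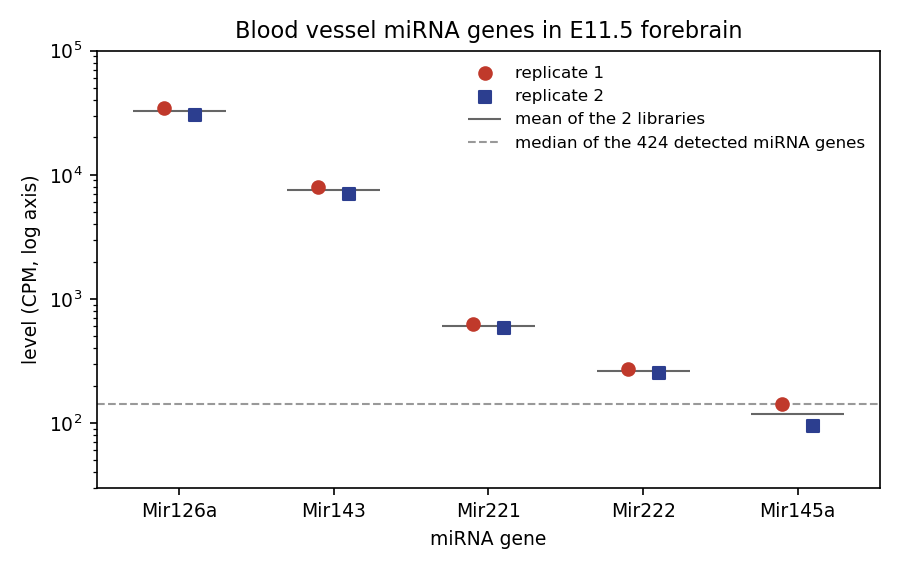
Level of the 5 blood vessel miRNA genes in CPM on a log axis, with a red circle for replicate 1, a blue square for replicate 2, a solid line for their mean and a dashed line for the median of the 424 detected genes (143 CPM). Mir126a stands highest at 32462 CPM and Mir145a lowest at 118 CPM, and no 2 members overlap.

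Mir126a, the endothelial member, had 34601 CPM in replicate 1, against 30323 CPM in replicate 2, from 44331 and 39349 counts. It ranked 6 and 7 among all miRNA genes, and 5 detected genes had a higher mean. Reads that mapped to several places, 29.5% and 29.2% of all reads, are not in these counts. Genes with near copies can therefore rank too low. The mean of Mir126a was 32462 ± 3025 CPM. Its share was 3.46% of the counts in replicate 1, with a 95% Wilson interval of 3.43 to 3.49%, against 3.03% (3.003 to 3.06%) in replicate 2. Intervals here and below cover counting error only, since reads copied by PCR are not independent molecules. The genes nearest to Mir126a in level, by the distance between log2 CPM values over the 2 libraries, were Mir99b at 33339 ± 3117 CPM (distance 0.05) and Mir130a at 39525 ± 1495 CPM (distance 0.45).

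Mir143, the more abundant mural member, had 7974 CPM in replicate 1, against 7047 CPM in replicate 2, from 10217 and 9144 counts. Its mean of 7511 ± 656 CPM ranked 37. Mir145a, from the same locus, had 141 CPM in replicate 1, against 94.8 CPM in replicate 2, from 181 and 123 counts, with a mean of 118 ± 32.9 CPM at rank 226. The mural genes thus stood far apart in these libraries, and Mir145a had the widest spread between libraries, relative to its mean, of the 5 members. The nearest genes in level were Mir23a (7760 ± 575 CPM, distance 0.07) and Mir135b (7207 ± 293 CPM, 0.11) for Mir143, and Mir3099 (123 ± 30.2 CPM, 0.11) and Mir217 (114 ± 19.1 CPM, 0.17) for Mir145a.

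Mir221 had 630 CPM in replicate 1, against 586 CPM in replicate 2, from 807 and 761 counts, and a mean of 608 ± 30.7 CPM at rank 132. Mir222 had 273 CPM in replicate 1, against 253 CPM in replicate 2, from 350 and 328 counts, and a mean of 263 ± 14.4 CPM at rank 177. These repressors of Kit and Cdkn1b were thus at intermediate levels and moved little between the libraries. Nearest to Mir221 were Mir32 (599.97 ± 20.2 CPM, distance 0.04) and Mir542 (588 ± 11.3 CPM, 0.08), and nearest to Mir222 were Mir377 (256 ± 6.14 CPM, 0.07) and Mir224 (269 ± 0.778 CPM, 0.09).

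The order Mir126a, Mir143, Mir221, Mir222, Mir145a was the same in both libraries, and no neighbours in it overlapped. Counts of Mir126a exceeded those of Mir143 by 4.34 times in replicate 1 and 4.30 times in replicate 2, a log2 ratio of 2.11 ± 0.01. Mir143 exceeded Mir221 by 12.7 and 12.0 times (log2 3.62 ± 0.05), and Mir222 exceeded Mir145a by 1.93 and 2.67 times (1.18 ± 0.33). The last step was the least steady, with exact 95% intervals of the log2 ratio of 0.69 to 1.22 in replicate 1 and 1.11 to 1.73 in replicate 2. With 2 libraries an exact permutation test of 2 values against 2 cannot give a p below 0.333, so the order was not tested across libraries. The order and the ratios between genes, here and below, are those of read counts. How closely they follow amounts of RNA in the tissue was not tested. A read covers a whole mature miRNA, and counts were therefore not divided by length. Per base of the hairpin, the same order held, with log2 ratios of 1.90, 4.22, 0.94 and 1.01 down the order.

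The hairpins of each locus differed in counts, and by far more at the Mir143 locus than at the Mir221 locus. Mir143 had 56.4 times the counts of Mir145a in replicate 1 (exact 95% interval 48.7 to 65.8) and 74.3 times in replicate 2 (62.2 to 89.6). Mir221 had 2.31 times the counts of Mir222 in replicate 1 (2.03 to 2.62) and 2.32 times in replicate 2 (2.04 to 2.65). The Mir221 to Mir222 ratio was thus nearly the same in both libraries, while the Mir143 to Mir145a ratio was lower in replicate 1 by 0.40 on the log2 scale. Fisher's exact test of the counts by library, two-sided and adjusted over 3 ratios, gave adjusted p = 0.0614 for Mir143 to Mir145a and 0.963 for Mir221 to Mir222, and neither passed 0.05. Mir126a had 4.26 times the summed counts of the mural genes in replicate 1 (4.17 to 4.36) and 4.25 times in replicate 2 (4.15 to 4.34), with an adjusted p of 0.963 in the same exact test. This ratio is in effect that of Mir126a to Mir143, since Mir145a gave only 181 and 123 counts of the mural sum. The ratio of Mir126a to Mir145a alone was lower in replicate 1 than in replicate 2, a difference that was not tested.

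Such ratios were set beside those of other clustered miRNA genes. In the whole table, 84 pairs of neighbouring hairpins lay on the same strand within 2000 bases of each other, with 10 counts or more in total for each gene. The higher gene had a median of 5.30 times the counts of the lower, and 12 pairs had a larger ratio than Mir143 to Mir145a, against 65 with a larger ratio than Mir221 to Mir222. Where neither hairpin shares 20 bases with one elsewhere, 53 pairs were left, with a median of 5.02 times. Of these, 6 had a larger ratio than Mir143 to Mir145a, among them Mir20a to Mir19a, named after its values were seen, at a log2 ratio of 7.60. Adjusted over all 84 pairs, the exact test gave p = 0.101 for Mir143 to Mir145a. It called 15.5% of the pairs different between the libraries, and neither pair of vessel genes was among them.

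**Figure D2:**
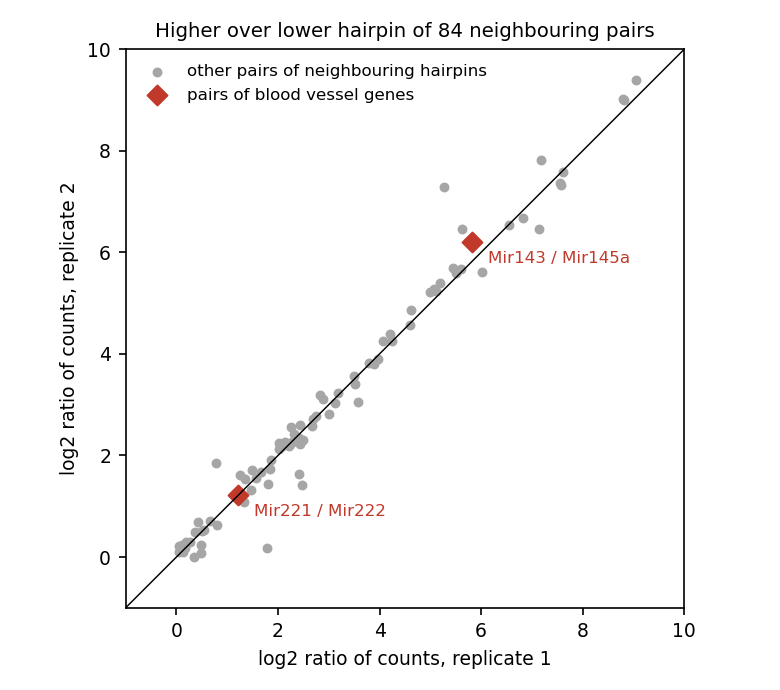
Log2 ratio of counts of the higher over the lower hairpin in each of 84 neighbouring pairs, in replicate 1 (x axis) against replicate 2 (y axis), with pairs of blood vessel genes as red diamonds and equal ratios on the line. Mir221 to Mir222 lies on the line near 1.2, and Mir143 to Mir145a lies near 6.0, slightly above it.

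Between the libraries, all 5 members read higher in replicate 1. Mir145a was 1.49 times as high in replicate 1 as in replicate 2, Mir126a 1.14 times and Mir143 1.13 times, while Mir221 and Mir222 were 1.07 and 1.08 times as high. The two-sided exact binomial test against the library totals, adjusted by the Benjamini-Hochberg method over 398 genes with at least 10 counts, called 3 of the 5 members higher in replicate 1 and 0 lower. It called 20.6% of all tested genes higher in replicate 1 and 7.79% lower. The log2 ratio was 0.19 for Mir126a (exact 95% interval 0.17 to 0.21, adjusted p = 3.66e-79), 0.18 for Mir143 (0.14 to 0.22, adjusted p = 1.24e-16) and 0.57 for Mir145a (0.24 to 0.92, adjusted p = 0.00335). Mir221 at 0.10 (-0.04 to 0.25, adjusted p = 0.333) and Mir222 at 0.11 (-0.11 to 0.33, adjusted p = 0.558) did not pass.

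These calls say that 2 libraries differ beyond counting error, not beyond the spread of replicates. Among the 37 genes with as many counts as Mir143 or more, 31 were called, so a call at this depth is common. Among the 226 genes with as many counts as Mir145a or more, 103 were called. The median log2 ratio was 0.18 for the members and 0.07 for all 398 tested genes, 64.3% of which lay above 0. With edgeR's TMM scaling, which shifts all log2 ratios by -0.07, the split over all genes became 52 higher and 54 lower, against 82 and 31 without it, and the same count of 3 members was called. The edgeR exact test with the common spread of the 2 libraries, a coefficient of variation of 11.4%, called 2.01% of the genes and 0 of the 5 members. In that test Mir145a had an unadjusted p of 0.0482 (adjusted p = 0.959) and each of the other 4 an adjusted p of 1.

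**Figure D3:**
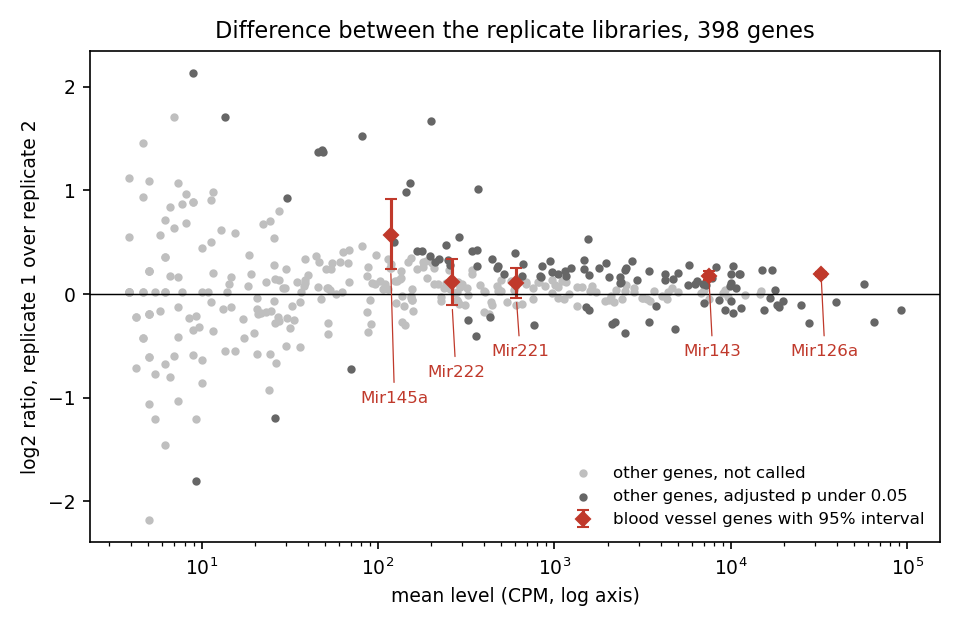
Log2 ratio of replicate 1 over replicate 2 (y axis) against the mean level in CPM on a log axis for the 398 tested genes, with the 5 blood vessel genes as red diamonds with exact 95% intervals and other genes in dark grey where the adjusted p of the exact binomial test was under 0.05. All 5 vessel genes lie above 0, and Mir145a, at 0.57, lies furthest from it.

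Other miRNAs that have been described in vessels, angiogenesis or the response to low oxygen were taken as a list of 19 genes, of which 17 had a row. All 17 passed 2 CPM in both libraries. Mir130a, described as promoting angiogenesis, had 38468 CPM in replicate 1, against 40583 CPM in replicate 2, and Mir322, of the Mir322 and Mir503 cluster, 17996 and 17532 CPM. Mir23b had 10981 and 10514 CPM, and Mir296 had 10681 and 9317 CPM. These 4 led the list, but all are known from many tissues. Mir126a thus had a level between Mir130a and Mir322, and Mir143 stood below all 4. The exact binomial test called 9 of the 17 higher in replicate 1 and 2 of them lower, and their median log2 ratio was 0.17, beside 82 and 31 of the 398 genes and 0.07. The widest gaps, named after their values were seen, were those of Mir10a and Mir10b, which lie in Hox gene clusters. Mir10a had 120 CPM in replicate 1, against 41.6 CPM in replicate 2, and Mir10b had 66.3 CPM in replicate 1, against 25.4 CPM in replicate 2. Their log2 ratios of 1.52 and 1.37 exceeded that of every vessel member. Mir24-1 and Mir378a had no row, and genes of this list with near copies can be read too low.

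Marker miRNAs of other cell types were read in the same libraries. Whether each gene was specific to its cell type in this tissue was not tested. The 14 neural genes with a row summed to 41673 CPM in replicate 1, against 35865 CPM in replicate 2, led by Mir92b (17079 ± 1908 CPM), Mir149 (14979 ± 1706 CPM), Mir137 (2536 ± 316 CPM) and Mir153 (1939 ± 64.8 CPM). All 14 had counts, though those with near copies, such as the 3 Mir124a genes, can be read too low, and Mir9-1 had no row. Mir126a alone stood above each gene of this list as read and below its sum, which can be read too low for the same reasons. The 6 mesenchyme genes summed to 15877 CPM in replicate 1, against 14552 CPM in replicate 2, led by Mir214 (6296 ± 302 CPM), Mir22 (4244 ± 405 CPM), Mir140 (4241 ± 286 CPM) and Mir199b (359.9 ± 70.8 CPM). Mir143 exceeded each of them, though Mir199a-1 and Mir199a-2, near copies of each other, can be read too low, as can the mesenchyme sum.

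Blood cell markers with a row were low beside Mir126a and Mir143, but Mir155, Mir451a and Mir223 each had a higher mean than Mir222 and Mir145a. The 3 erythroid genes summed to 606 CPM in replicate 1, against 371 CPM in replicate 2, from Mir451a (369 ± 176 CPM), Mir144 (89.95 ± 2.48 CPM) and Mir486 (30.2 ± 7.40 CPM). The 3 leukocyte genes with a row, Mir155 (400.4 ± 34.2 CPM), Mir223 (341 ± 31.6 CPM) and Mir150 (18.2 ± 0.713 CPM), summed to 759 CPM in replicate 1, against 761 CPM in replicate 2. Mir142a, a leading leukocyte miRNA, had no row, so the leukocyte sum can be read too low. Of the 8 striated muscle genes with a row, 4 had 0 counts in both libraries, Mir133a-1, Mir133a-2, Mir133b and Mir1a-1. The other 4, led by Mir208b (144 ± 67.1 CPM), brought the list to 253 CPM in replicate 1, against 134 CPM in replicate 2. Mir143 stood above this sum, while Mir145a, its partner in smooth muscle, stood below it and below Mir208b. The striated sum can be read too low, since Mir1a-2 had no row and the 4 genes at 0 have near copies.

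The sums of the lists did not all move like the vessel genes. The log2 ratio of the summed levels, replicate 1 over replicate 2, was 0.19 for Mir126a and 0.18 for the mural genes, beside 0.22 for neural, 0.13 for mesenchyme and -0.0052 for leukocyte genes. Leukocyte genes went both ways, with Mir155 at -0.17, Mir223 at 0.19 and Mir150 at 0.08, which was also their median. The mural sum is nearly all Mir143, and the median log2 ratio of the mural genes was 0.38, with Mir145a at 0.57. The ratio of sums was 0.92 for striated muscle genes and 0.71 for erythroid genes. The striated genes with counts were at 0.99 for Mir208b, 0.92 for Mir208a, 1.10 for Mir206 and 0.09 for Mir499. Mir451a carried the erythroid sum, with a log2 ratio of 1.01, while Mir144 was at -0.06 and Mir486 at -0.50, so the erythroid median was -0.06. The exact binomial test called 6 of 12 tested neural genes higher in replicate 1 and 0 lower, and 3 and 1 of 6 mesenchyme genes. It called 1 and 0 of 3 erythroid genes, 2 and 0 of 4 striated muscle genes, and 0 in either direction of 3 leukocyte genes. Over all 398 tested genes it called 20.6% higher in replicate 1 and 7.79% lower. Calls also depend on depth, with 31 called of the 37 genes with as many counts as Mir143 or more. The part of other cell types in the members' differences was not tested.

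**Figure D4:**
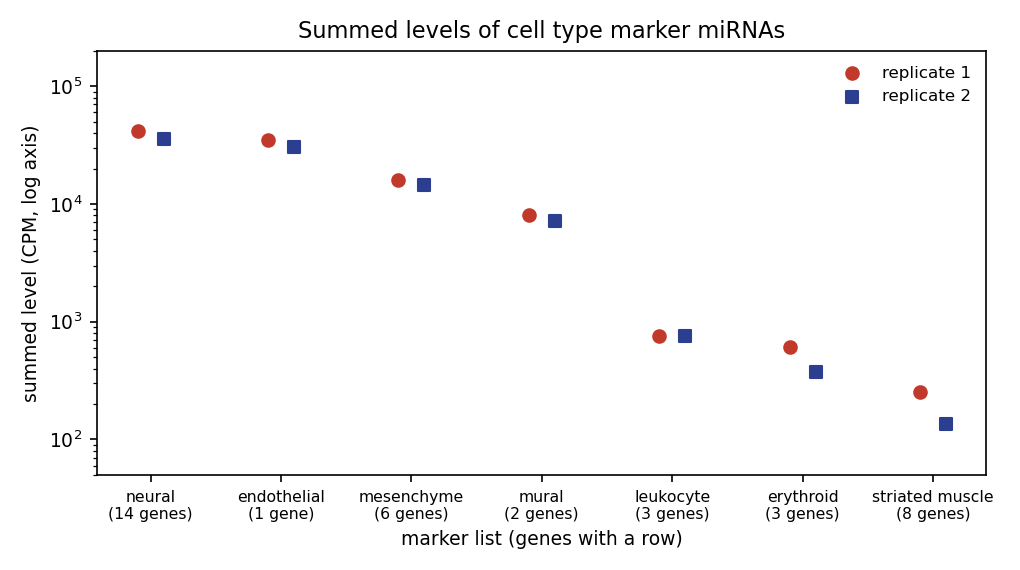
Summed level in CPM on a log axis of the marker miRNA genes of each cell type, with red circles for replicate 1 and blue squares for replicate 2. Mir126a, the endothelial gene, reached 34601 and 30323 CPM, below the neural list at 41673 and 35865 CPM, while leukocyte, erythroid and striated muscle lists were lowest. The neural, mesenchyme, leukocyte and striated muscle sums can be read too low, since some of their genes have near copies or no row.

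Nearly all reads of the members lay on the strand of the gene. Mir143, Mir145a, Mir221 and Mir222 had 0 counts on the opposite strand in both libraries. For Mir145a, with the fewest reads, a limit of 3 counts allows an opposite-strand share of up to 1.66% in replicate 1 and 2.44% in replicate 2, and the 95% Wilson intervals reach 2.08% and 3.03%. Mir126a had 5 opposite-strand counts in replicate 1 and 6 in replicate 2, or 0.0113% (95% Wilson interval 0.00482 to 0.0264%) and 0.0152% (0.00699 to 0.0333%) of its reads. Over all gene rows the opposite strand held 3.61% and 3.22%. Mir126b, whose sequences are shown above, is annotated on that strand of Mir126a and had no row of its own, so reads of miR-126b would stand among these.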

How the data were processed

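The readme text deposited beside each table names the assembly mm10 and annotation M4, and the labels give an RNA size range below 30, with no unit. An aligner or counting program is not given in the sources used here. Deposited tables hold raw counts in 3 columns, for both strands, the gene's strand and the opposite strand. Levels here use the gene's strand, with 96.4% and 96.8% of the counts in replicates 1 and 2. The 4 rows that name no gene were left out: in replicates 1 and 2, 29.3% and 25.3% of reads were unmapped, 29.5% and 29.2% mapped to several places, 7.61% and 6.34% lay outside miRNA genes, and 0 were ambiguous.

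Members and lists were chosen with earlier results of these data known. Symbols and positions are from GENCODE M21, with RefSeq synonyms for changed symbols. Named genes are the members, up to 4 genes of each list by mean CPM, and for each member the 2 genes nearest in log2 CPM with 50 counts or more. Mir145b, Mir10a, Mir10b, Mir20a, Mir19a, Mir142a, Mir24-1, Mir378a, Mir9-1, the Mir124a genes, Mir199a-1, Mir199a-2, Mir1a-1, Mir1a-2 and the Mir133 genes fall outside that rule, and were named after their values were seen. No genome was used, so copies outside miRNA hairpins were not looked for.

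With 1 group of 2 libraries no residual degrees of freedom are left for a model of replicate 1 against replicate 2, so exact tests on counts were used, at a threshold of 0.05 after Benjamini-Hochberg adjustment. For log2 ratios between libraries 0.5 counts were added. The exact binomial test and the edgeR exact test were tried on simulated counts first, while Fisher's exact test was not. The simulation for the binomial test held counting error only. Alternatives were the unstranded column, TMM factors and the exact test of edgeR 4.0.16, DESeq2 1.42.0 size factors, other totals, count filters and pseudocounts, hairpin length and leaving out each replicate. Computation used Python 3.11.15, scipy 1.17.1 and R 4.3.3.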

Additional observations from a re-analysis of the deposited data

Results flagged for a closer look

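Mir126a had 5 counts on the opposite strand in replicate 1 and 6 counts in replicate 2, in a column that the levels do not use, while the other 4 members had 0 there. Both counts exceed the limit of 3 that is used here for a gene with 0 counts. Mir126b is annotated on that strand at the same place. Whether these reads come from Mir126b was not tested.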

How the results depend on the processing

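The edgeR exact test with a common dispersion called 0 of the 5 members between the libraries (8 of 398 genes, and 20 at an unadjusted p under 0.05), against 3 with the exact binomial test. Its dispersion was estimated from the same 2 libraries that it compares. The count stayed at 3 with the unstranded column, TMM or DESeq2 scaling, a total without the 10 most abundant other genes, no filter, and a minimum of 50 counts. The share of all tested genes called was 28.4% in the main setting. It was 26.6% to 28.4% with the unstranded column, other scalings or the smaller total. With no filter it was 15.8%, and with a minimum of 50 counts 38.3%. All 5 log2 ratios kept their sign under each scaling.

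CPM depends on what is in the total. Without the 10 most abundant other genes, mean levels were 53774 CPM for Mir126a, 12442 for Mir143, 194.95 for Mir145a, 1008 for Mir221, 436 for Mir222 and 67855 for the sum. With multimapping reads in the total, they were 17619, 4077, 63.7, 330.4, 143 and 22233 CPM in that order. Ratios between members do not depend on the total. Per base of the hairpin, log2 ratios were 1.90 for Mir126a over Mir143, 4.22 for Mir143 over Mir221 and 0.94 for Mir221 over Mir222. With either replicate left out, levels and ratios moved by less than their SD, which 2 libraries cannot exceed. A difference between the libraries cannot be formed from 1. No paired analysis was possible because there is 1 group, and replicate numbers can pair samples only between groups. Depth limits Mir145a most, with 181 and 123 counts.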
